A study of Homo sapiens with 9 samples.

Results

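Transcripts of 10 genes that the fusion oncoprotein EWSR1::FLI1 is known to activate in Ewing sarcoma were followed across cells with and without added ETS1. They were chosen by symbol as known fusion-activated genes: the transcription factors NR0B1, NKX2-2, BCL11B and FEZF1, the kinases PRKCB and VRK1, the membrane proteins CAV1 and FCGRT, and the enzymes GSTM4 and LIPI. All 10 were found among the 58381 genes of the count table, and all 10 were among the 17235 genes tested. RNA-seq was made from TC-32, an established human Ewing sarcoma line that carries the fusion, in 3 groups of 3 libraries. RFP cells carried the lentiviral pLOC vector with a red fluorescent protein, and ETS1-Low and ETS1-High cells carried pLOC with an ETS1 cDNA, at a lower level and at a level comparable to that of fusion-depleted cells. The fusion was present in all 3 groups. Transduced cells were selected with puromycin and sorted as single cells, and the labels do not give how many clones stand behind a group. Differences between clones and differences made by ETS1 therefore cannot be told apart. Nothing states that the 3 libraries of a group came from separate cultures, so p-values measure only the spread between these libraries, which may be technical.

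EWSR1::FLI1 joins the amino-terminal part of EWSR1 to the DNA-binding domain of FLI1, a member of the ETS family of transcription factors. ETS factors bind sites with a GGAA core, and the fusion also binds long runs of GGAA repeats, where it recruits chromatin remodellers and turns otherwise silent DNA into enhancers. Several of these genes, NR0B1 and NKX2-2 among them, are required for the transformed growth of Ewing cells, and NKX2-2 serves as a diagnostic marker of the tumour. ETS1 has the same type of DNA-binding domain but lacks the EWSR1 part.

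GGAA repeats were looked up next to the 10 genes in the GRCh38 reference genome, reading GGAA units on either strand. They describe the reference and not TC-32, whose repeat lengths were not analysed here, and a repeat near a gene is a description and not evidence of binding. A run of at least 8 uninterrupted units lay in the 5 kb upstream of the gene start in 4 of the 10 genes (NR0B1, CAV1, GSTM4 and LIPI), against 157 of 20033 protein-coding genes (0.784%). Counted from the start of the canonical transcript, an alternative chosen after seeing the data, FCGRT joined them, which made 5 of 10 against 0.834%. Within 50 kb on either side of the gene start, 9 of the 10 had such a run, against 12.2% of protein-coding genes, and BCL11B had none. The 10 were chosen as known targets of a fusion that binds such runs, so these shares are not independent of that choice. The longest tracts of the 6 genes with a run within 5 kb of the canonical start are shown, read 5′ to 3′ on the strand with GGAA, with the GGAA units in capitals and interrupting bases in lower case.
NR0B1, chrX:30310758-30310859, minus strand: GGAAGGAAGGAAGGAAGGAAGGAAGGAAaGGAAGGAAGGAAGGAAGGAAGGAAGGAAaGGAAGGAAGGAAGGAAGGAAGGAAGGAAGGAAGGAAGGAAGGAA
CAV1, chr7:116523067-116523236, plus strand: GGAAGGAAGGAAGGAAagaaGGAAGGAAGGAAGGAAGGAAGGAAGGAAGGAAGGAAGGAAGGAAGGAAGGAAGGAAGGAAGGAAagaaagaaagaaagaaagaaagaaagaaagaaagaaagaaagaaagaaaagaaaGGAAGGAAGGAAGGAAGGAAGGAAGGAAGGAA
GSTM4, chr1:109654236-109654308, plus strand: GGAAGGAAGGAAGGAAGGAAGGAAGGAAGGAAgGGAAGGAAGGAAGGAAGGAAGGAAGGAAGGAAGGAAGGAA
LIPI, chr21:14213292-14213335, minus strand: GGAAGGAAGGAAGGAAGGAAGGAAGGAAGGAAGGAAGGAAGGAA
FCGRT, chr19:49511507-49511618, plus strand: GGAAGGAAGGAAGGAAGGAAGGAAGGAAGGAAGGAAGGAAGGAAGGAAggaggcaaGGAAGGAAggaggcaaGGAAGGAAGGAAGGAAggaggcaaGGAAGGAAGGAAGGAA
FEZF1, chr7:122303473-122303596, plus strand: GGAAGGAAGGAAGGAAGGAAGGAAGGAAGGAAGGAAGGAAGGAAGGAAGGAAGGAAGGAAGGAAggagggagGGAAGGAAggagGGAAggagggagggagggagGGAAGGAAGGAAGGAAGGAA

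The NR0B1 tract held 25 units and was broken by single bases, so that its longest run was 11 units, and it ended 1368 bases before the gene start. In CAV1 28 units were split into blocks by a stretch of agaa repeats, with a longest run of 16 units, 1800 bases before the canonical start. GSTM4 had 18 units with a longest run of 10, 1791 bases upstream, and LIPI had 1 run of 11 units, 2337 bases upstream. In FCGRT 22 units with a longest run of 12 lay in an intron of the longer transcript, 1043 bases upstream of the canonical start. The FEZF1 tract lay in an intron 1154 bases downstream of the canonical start and held 24 units with a longest run of 16. The other 3 genes had their longest run farther away. It had 13 units in an intron of PRKCB, 31015 bases downstream of its start, 11 units in an intron of LINC02299, 28117 bases upstream of VRK1, and 9 units in intergenic DNA 41728 bases upstream of NKX2-2. None of the 9 tracts overlapped an annotated exon.

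**Figure D1:**
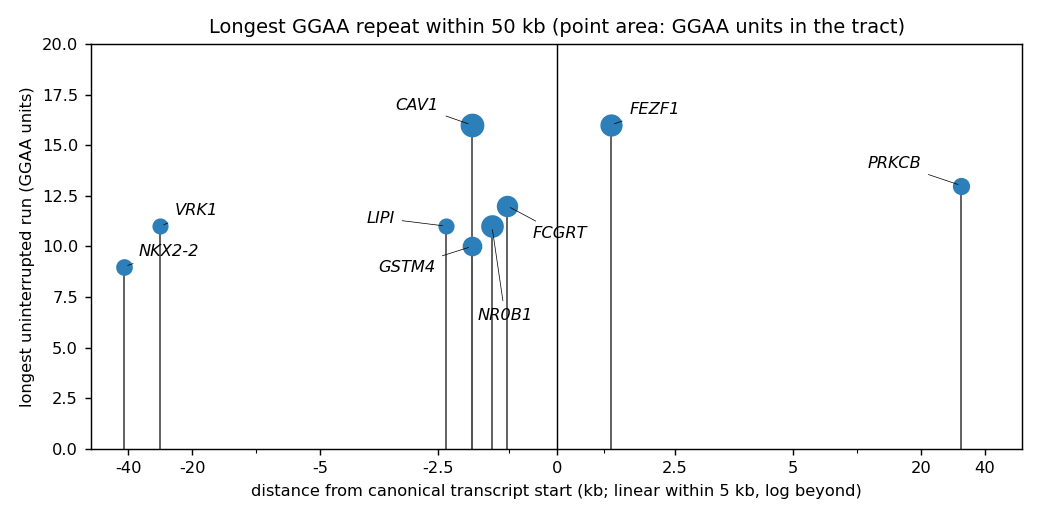
Longest uninterrupted GGAA run within 50 kb of 9 of the 10 genes in the reference genome, plotted as the number of units (vertical axis) against the distance from the canonical transcript start in kb (horizontal axis, linear within 5 kb and logarithmic beyond); point area follows the number of GGAA units in the whole tract. The runs of CAV1, GSTM4, LIPI, NR0B1 and FCGRT lie within 5 kb upstream, that of FEZF1 1154 bases downstream, and those of NKX2-2, VRK1 and PRKCB more than 20 kb away.

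Expected counts per library totalled 39484704 to 46654734. ETS1 itself had 2.00 ± 0.17 CPM (counts scaled to library size with TMM factors) in RFP, 10.6 ± 0.30 in ETS1-Low and 19.1 ± 0.81 in ETS1-High (SD, n = 3), without overlap between groups, and the counts do not separate the vector copy from the endogenous one. FLI1, whose 3′ part is in the fusion transcript, had 51.9 ± 1.26, 60.6 ± 0.99 and 70.8 ± 0.54 CPM in the same order. EWSR1 had 293 ± 5.26, 358 ± 2.45 and 371 ± 9.10 CPM. Both differed from RFP in each ETS1 group in the edgeR quasi-likelihood test (adjusted p from 7.73e-17 to 1.16e-07 for FLI1, and 4.22e-15 and 1.15e-12 for EWSR1), and reads of the fusion cannot be told from those of its parent genes. The part of FLI1 and EWSR1 levels in the results below was not tested. Of markers of this tumour, CD99, FLI1, STEAP1 and CCND1 summed to 1769 to 1863 CPM in RFP, 2854 to 2894 in ETS1-Low and 2923 to 2935 in ETS1-High. Sums for the 4 haematopoietic and 3 skeletal muscle markers were at most 1.62 and 0.82 CPM, both highest in RFP. The 4 fibroblast markers (COL1A1, DCN, PDGFRA, LUM) summed to 47.7 to 54.6 CPM in RFP, 30.3 to 33.5 in ETS1-Low and 51.4 to 58.5 in ETS1-High. The 3 endothelial markers summed to 1.66 to 2.12, 3.565 to 3.99 and 4.97 to 5.56 CPM in that order, and the 3 epithelial ones to 0.043 to 0.19, 0.90 to 1.33 and 2.01 to 3.045 CPM. The markers within a sum did not move together. In RFP, ETS1-Low and ETS1-High PECAM1 had 1.70, 3.69 and 5.16 CPM, CDH5 0.084, 0.049 and 0.12, and VWF 0.083, 0 and 0. KRT5 had 0.021, 0.86 and 2.39 CPM, EPCAM 0.069, 0.17 and 0.037, and CDH1 0.028, 0.052 and 0.053. PDGFRA had 12.8, 3.72 and 2.95 CPM, COL1A1 39.3, 28.3 and 50.9, DCN 0.014, 0.041 and 0.91, and LUM 0, 0 and 0.39. The sums thus moved with the groups through some of their markers, and their part in the results was not tested. In bulk RNA, fewer cells with a transcript and less of it per cell cannot be told apart.

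Against RFP, 8 of the 10 genes were higher and 2 were lower in each ETS1 group, and the 8 and the 2 were the same genes in both, which share the RFP libraries. FEZF1 and VRK1 were the lower ones. A gene was called where the edgeR test gave a Benjamini-Hochberg adjusted p under 0.05 over all genes tested. In ETS1-High against RFP 10 of 10 were called, where 74.2% of all tested genes were (37% higher, 37.2% lower). In ETS1-Low against RFP 10 of 10 were called, where 74.1% of all genes were (37.9% higher, 36.2% lower). Between ETS1-High and ETS1-Low 8 of 10 were called, 4 higher and 4 lower, where 59.2% of all genes were (29.9% higher, 29.3% lower). The members' share called is thus read against a background in which most genes were called. Libraries did not overlap between groups in 75.5%, 76% and 63.2% of all genes in these comparisons. Changes of at least 2-fold were found in FCGRT and LIPI in ETS1-High against RFP (21% of all genes, 9.64% higher and 11.4% lower), in FCGRT, GSTM4 and LIPI in ETS1-Low against RFP (20.6%, 8.47% higher and 12.2% lower), and in GSTM4 between the ETS1 groups (9.74%, 6.05% higher and 3.69% lower). The median log2 fold change of the 10 genes relative to RFP was 0.41 for ETS1-High and 0.27 for ETS1-Low, beside -0.01 and 0.01 over all genes. Between the ETS1 groups it was -0.03, beside -4.67e-05.

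**Figure D2:**
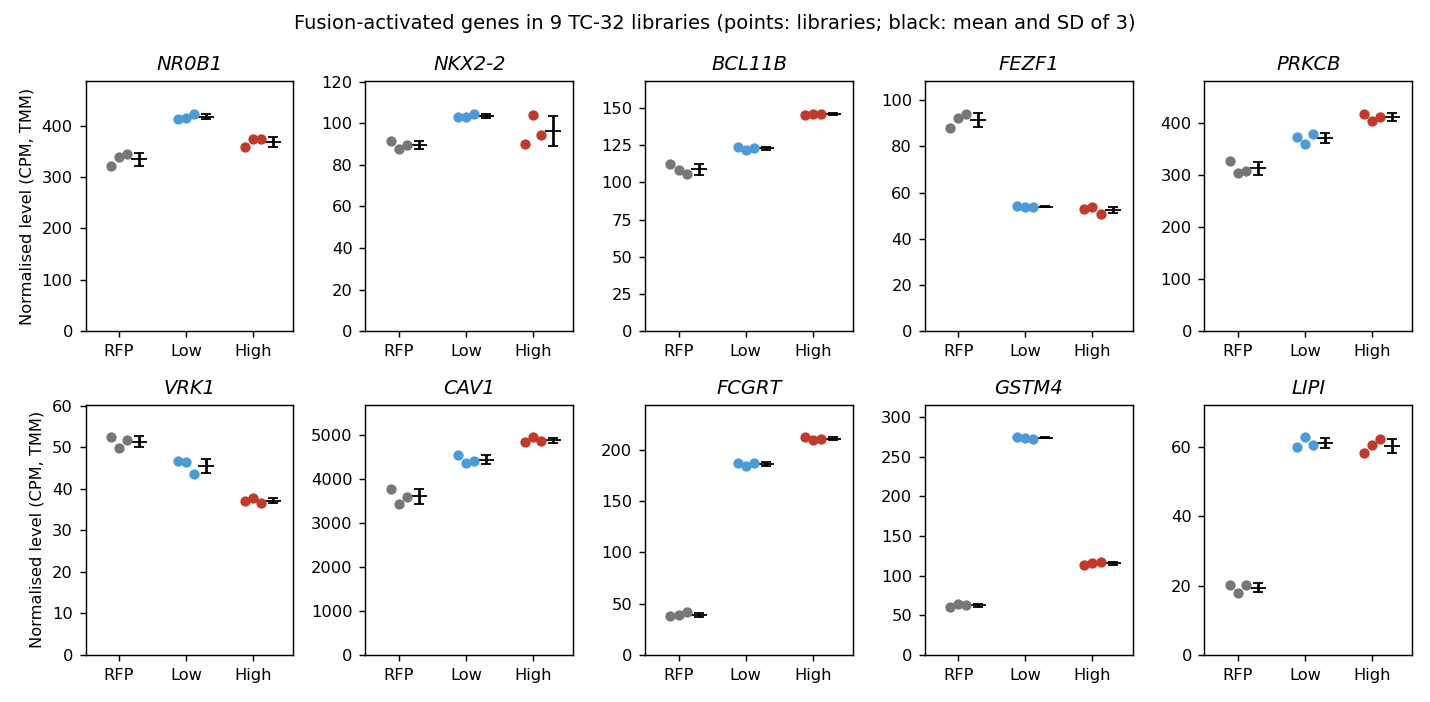
Normalised level in CPM (vertical axis of each panel, from 0) of the 10 genes in the RFP, ETS1-Low and ETS1-High libraries; each point is a library, and the black marks give the mean and SD of 3. FCGRT and LIPI were at similar levels in both ETS1 groups and far above RFP, GSTM4 peaked in ETS1-Low at 274 CPM, and FEZF1 and VRK1 were highest in RFP.

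Among the transcription factors, NR0B1 and NKX2-2 were highest in ETS1-Low, BCL11B rose in steps to ETS1-High, and FEZF1 was lower in both ETS1 groups. NR0B1 encodes DAX1, an orphan nuclear receptor that represses other nuclear receptors (ENSG00000169297.7; GRCh38 chrX:30304206-30309390, minus strand). Its libraries had 321, 338 and 345 CPM in RFP, 414, 415 and 423 in ETS1-Low, and 358, 375 and 374 in ETS1-High. The ranges of the 3 groups did not overlap, with ETS1-High in the middle. Relative to RFP, the log2 fold changes were 0.32 for ETS1-Low (SE 0.03; edgeR adjusted p 1.67e-13) and 0.14 for ETS1-High (SE 0.03; edgeR adjusted p 5.17e-05). ETS1-High was below ETS1-Low by -0.18 (SE 0.03; edgeR adjusted p 1.25e-06). The ETS1-High call against RFP was lost when libraries were scaled by their totals alone (log2 fold change 0.04, edgeR adjusted p 0.268) and in FPKM (0.03, limma adjusted p 0.424 to 0.518).

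NKX2-2, a homeodomain repressor of the developing nervous system (ENSG00000125820.5; chr20:21511017-21514064, minus strand), had small differences between groups. Its libraries had 91.3, 87.6 and 89.7 CPM in RFP, 103, 103 and 105 in ETS1-Low, and 89.9, 104 and 94.5 in ETS1-High. ETS1-Low stood above RFP without overlap, while ETS1-High replicates were spread over both other groups. From RFP to ETS1-Low the log2 fold change was 0.21 (SE 0.04; edgeR adjusted p 4.9e-06). From RFP to ETS1-High it was 0.10 (SE 0.04; edgeR adjusted p 0.0121), and ETS1-High differed from ETS1-Low by -0.11 (SE 0.04; edgeR adjusted p 0.0142). These smaller differences rested on single libraries: without ETS1-High replicate 2 the first became 0.05 (edgeR adjusted p 0.232), and without ETS1-High replicate 1 the second became -0.06 (edgeR adjusted p 0.177). In FPKM none of the 3 differences passed (limma adjusted p 0.15 to 1), and scaled by library totals ETS1-High stood at -0.000758 against RFP.

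BCL11B, a zinc finger repressor best known from T cells and neurons (ENSG00000127152.17; chr14:99169287-99272197, minus strand), was the gene without a long GGAA run nearby. Its libraries had 113, 108 and 105 CPM in RFP, 124, 122 and 123 in ETS1-Low, and 145, 146 and 146 in ETS1-High. The groups stood in the order of ETS1 dose without overlap. On the log2 scale RFP was exceeded by 0.18 for ETS1-Low (edgeR adjusted p 1.54e-06) and by 0.42 for ETS1-High (SE 0.03; edgeR adjusted p 1.2e-17), with a step of 0.25 from ETS1-Low to ETS1-High (edgeR adjusted p 8.63e-10). The ETS1-Low call against RFP did not hold under library totals alone (0.04, edgeR adjusted p 0.166) or in FPKM (0.04, limma adjusted p 0.375 to 0.402).

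FEZF1, a zinc finger repressor of forebrain and olfactory development (ENSG00000128610.11; chr7:122301303-122310691, minus strand), fell most. Its libraries had 88.1, 92.2 and 94.1 CPM in RFP, 54.0, 53.7 and 53.8 in ETS1-Low, and 52.9, 53.6 and 50.9 in ETS1-High. Both ETS1 groups lay below every RFP library, and ETS1-High lay just below ETS1-Low without overlap. Log2 fold changes from RFP were -0.76 for ETS1-Low (SE 0.03; edgeR adjusted p 7.06e-26) and -0.80 for ETS1-High (SE 0.03; edgeR adjusted p 8.33e-27). Between the ETS1 groups it was -0.04 (95% interval -0.11 to 0.03; edgeR adjusted p 0.385). An antisense gene, FEZF1-AS1 (RP11-560I19.4 in the table), overlaps FEZF1 and had 219.5 CPM in RFP, 212 in ETS1-Low and 165 in ETS1-High on average. It was lower in ETS1-High than in RFP by -0.41 (edgeR adjusted p 3e-17), and in ETS1-Low the difference of -0.05 did not pass (edgeR adjusted p 0.155). That difference did pass under 8 of 17 alternatives, among them library totals alone (-0.18, edgeR adjusted p 4.75e-07) and FPKM (-0.20, limma adjusted p 0.000129 to 0.000835). Whether the counting used the strand is not given in the sources used here, so the split of reads between FEZF1 and its antisense partner is uncertain.

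The kinases moved in opposite directions. PRKCB, the beta isoform of protein kinase C, is activated by calcium and diacylglycerol (ENSG00000166501.13; chr16:23835983-24220611, plus strand). Its libraries had 329, 305 and 309 CPM in RFP, 375, 361 and 379 in ETS1-Low, and 419, 404 and 413 in ETS1-High. The groups rose in the order of ETS1 dose without overlap. From RFP to ETS1-Low the log2 fold change was 0.24 (SE 0.03; edgeR adjusted p 7.86e-10), from RFP to ETS1-High 0.39 (SE 0.03; edgeR adjusted p 2.15e-16), and from ETS1-Low to ETS1-High 0.15 (edgeR adjusted p 3.71e-05).

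VRK1 is a nuclear kinase that acts on chromatin and on the DNA-bridging protein encoded by BANF1 (ENSG00000100749.7; chr14:96797304-96954846, plus strand). Its libraries had 52.4, 49.97 and 51.8 CPM in RFP, 46.6, 46.4 and 43.7 in ETS1-Low, and 37.0, 37.9 and 36.7 in ETS1-High. The groups fell in the order of ETS1 dose without overlap. Log2 steps were -0.17 from RFP to ETS1-Low (SE 0.04; edgeR adjusted p 5.37e-05), -0.29 from ETS1-Low to ETS1-High (edgeR adjusted p 7.29e-09) and -0.47 from RFP to ETS1-High (SE 0.04; edgeR adjusted p 1.29e-15).

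CAV1 and FCGRT rose in both ETS1 groups, CAV1 by little and FCGRT by more than any other of the 10 genes. CAV1 encodes caveolin-1, the coat protein of the membrane pits called caveolae (ENSG00000105974.11; chr7:116524994-116561179, plus strand). Its libraries had 3772, 3436 and 3585 CPM in RFP, 4543, 4369 and 4394 in ETS1-Low, and 4834, 4941 and 4849 in ETS1-High. The order followed ETS1 dose without overlap. Relative to RFP, log2 fold changes were 0.30 for ETS1-Low (SE 0.03; edgeR adjusted p 5.25e-12) and 0.44 for ETS1-High (SE 0.03; edgeR adjusted p 1.82e-17), and the ETS1 groups differed by 0.14 (edgeR adjusted p 0.000237).

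FCGRT encodes the heavy chain of the neonatal Fc receptor, which pairs with beta-2-microglobulin and returns immunoglobulin G and albumin from endosomes to the surface (ENSG00000104870.12; chr19:49506816-49526428, plus strand). Its libraries had 37.4, 38.5 and 41.4 CPM in RFP, 187, 184 and 187 in ETS1-Low, and 212, 209.6 and 210.3 in ETS1-High. Both ETS1 groups lay far above every RFP library, and ETS1-High lay above ETS1-Low without overlap. The fold was 5.38 in ETS1-High (log2 2.43, SE 0.03; edgeR adjusted p 8.53e-48) and 4.75 in ETS1-Low (log2 2.25, SE 0.03; edgeR adjusted p 3.37e-46). Between the ETS1 groups the log2 difference was 0.18 (SE 0.03; edgeR adjusted p 1.3e-06).

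Among the enzymes, GSTM4 was highest in ETS1-Low and LIPI stood at like levels in both ETS1 groups. GSTM4 encodes a glutathione S-transferase of the mu class, which conjugates glutathione to electrophiles (ENSG00000168765.16; chr1:109656099-109665496, plus strand). Its libraries had 60.9, 64.5 and 62.8 CPM in RFP, 274.5, 274.1 and 273 in ETS1-Low, and 113, 117 and 117 in ETS1-High. The groups were far apart, with ETS1-High in the middle. The fold against RFP was 4.37 in ETS1-Low (log2 2.13, SE 0.03; edgeR adjusted p 9.09e-47) and 1.84 in ETS1-High (log2 0.88, SE 0.03; edgeR adjusted p 1.12e-29). ETS1-High was below ETS1-Low by -1.24 on the log2 scale (SE 0.03; edgeR adjusted p 1.12e-36). Expected counts were not whole in any of the 9 libraries for GSTM4, and likewise for CAV1, PRKCB and NKX2-2, so some of their reads were divided with other features, which the files do not name. Counts that were not whole also occurred in some libraries for NR0B1, VRK1, BCL11B and FCGRT, and in none for FEZF1 and LIPI. GSTM4 has near-identical mu-class paralogs, and its level is uncertain.

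LIPI, a lipase that releases lysophosphatidic acid and is otherwise known from testis (ENSG00000188992.11; chr21:14108813-14210955, minus strand), had 20.3, 17.9 and 20.1 CPM in RFP, 60.1, 62.9 and 60.8 in ETS1-Low, and 58.4, 60.7 and 62.4 in ETS1-High. The ETS1 groups overlapped each other and lay above every RFP library. The fold against RFP was 3.15 in ETS1-Low (log2 1.66, SE 0.04; edgeR adjusted p 5.71e-36) and 3.11 in ETS1-High (log2 1.64, SE 0.04; edgeR adjusted p 7.31e-36). Between the ETS1 groups the log2 difference was -0.02 (95% interval -0.09 to 0.06; edgeR adjusted p 0.713). An antisense transcript that overlaps LIPI, AP001347.6, had 3.47 to 3.92 CPM on average in the groups.

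The order of the groups thus took 4 forms. BCL11B, PRKCB, CAV1 and FCGRT had called steps upward from RFP to ETS1-Low to ETS1-High, and VRK1 had called steps downward. NR0B1, NKX2-2 and GSTM4 were highest in ETS1-Low with all 3 differences called. For NKX2-2, however, ETS1-High libraries overlapped those of both other groups. The calls of NKX2-2, of NR0B1 in ETS1-High against RFP and of BCL11B in ETS1-Low against RFP did not hold under every alternative. LIPI and FEZF1 differed from RFP in both ETS1 groups, and the difference between the ETS1 groups was not called for either. Libraries of the ETS1 groups overlapped for LIPI and did not for FEZF1, where ETS1-High lay just below ETS1-Low.

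**Figure D3:**
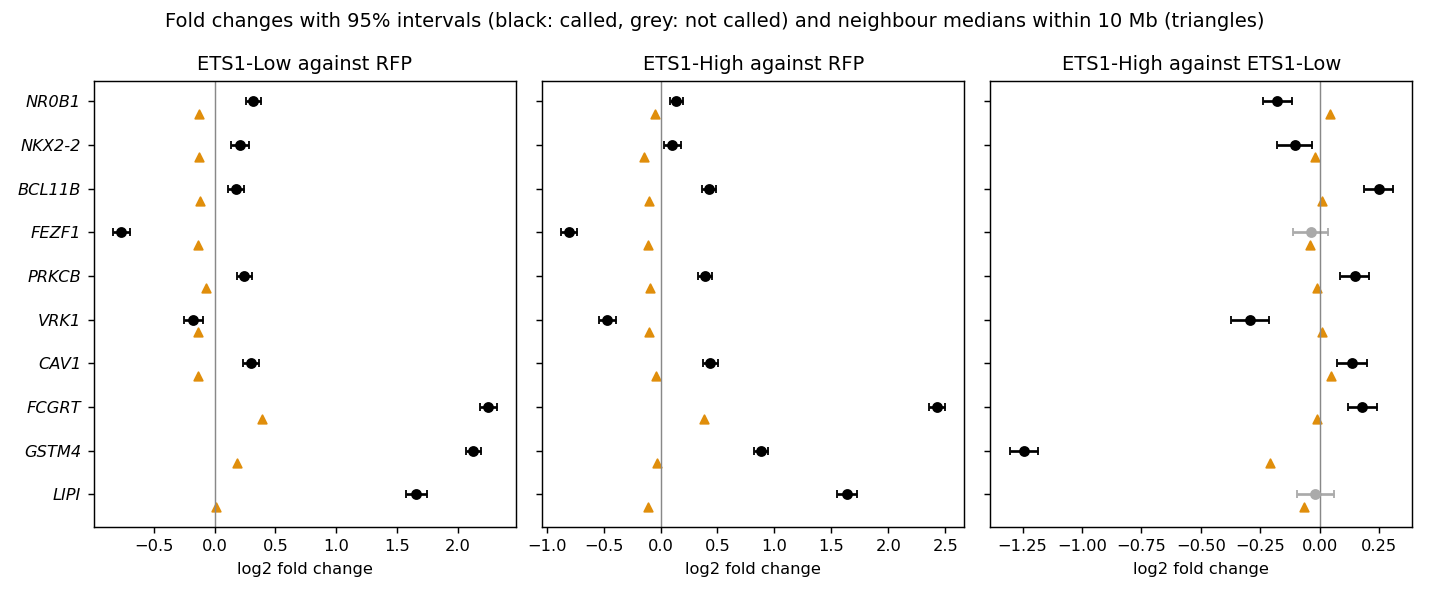
log2 fold change (horizontal axis) of the 10 genes in the 3 comparisons, as points with 95% intervals, black where called and grey where not; triangles give the median of neighbouring genes within 10 Mb. Intervals of FEZF1 and LIPI include 0 between the ETS1 groups, and the neighbour median of FCGRT lies at 0.38 and 0.39 against RFP.

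**Figure D4:**
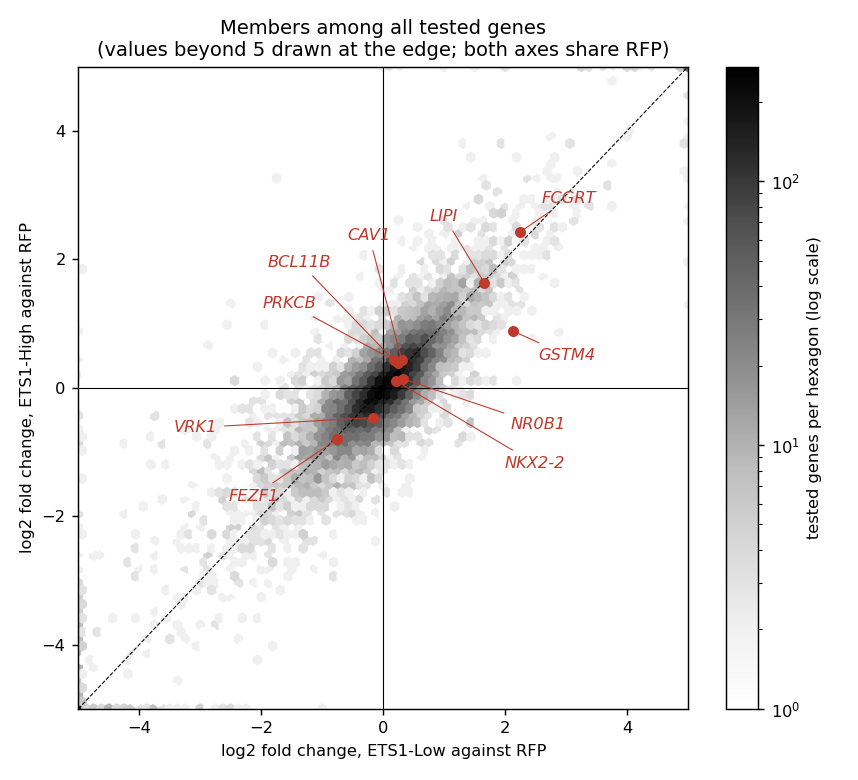
log2 fold change against RFP in ETS1-High (vertical axis) and ETS1-Low (horizontal axis) of all tested genes (grey hexagons, shaded by gene number on a log scale) and of the 10 genes (red); values beyond 5 are drawn at the edge. GSTM4 lies off the diagonal toward ETS1-Low (2.13 against 0.88), and both axes use the same RFP libraries, so their likeness is in part built in.

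Levels of the genes can be set beside each other only per length, in the deposited FPKM. CAV1 was far the most abundant, with a mean of 1692 FPKM in RFP, 1941 in ETS1-Low and 2155 in ETS1-High. These means ranked 57, 52 and 32 among all 58381 genes, tested or not. NR0B1 followed with 220.5, 249 and 225 FPKM. In RFP the next were PRKCB (57.5), GSTM4 (52.9), FEZF1 (52.2), NKX2-2 (49.5), VRK1 (37.4), FCGRT (30.5), LIPI (16.5) and BCL11B (15.7 FPKM). SDs were 2.25 for PRKCB, 2.11 for GSTM4, 1.97 for FEZF1 and 0.56 for NKX2-2, so GSTM4 and FEZF1 did not differ beyond their spread, nor did LIPI (SD 1.93) and BCL11B (SD 0.40). In ETS1-Low GSTM4 (212 FPKM) and FCGRT (141) stood above PRKCB (65.3). In ETS1-High FCGRT (162) and GSTM4 (92.1) did so (PRKCB 72.1). FEZF1 and VRK1 stood below LIPI in both ETS1 groups. The 3 genes had 28.4, 29.5 and 46.6 FPKM in ETS1-Low and 27.9, 25.4 and 46.7 in ETS1-High. CAV1 made up 69.5% to 77.0% of the summed FPKM of the 10 genes in each library. Their share of all counts was 0.484% to 0.511% in RFP, 0.578% to 0.592% in ETS1-Low and 0.623% to 0.628% in ETS1-High.

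Genes within 10 Mb of each of the 10 were examined to see whether its change was shared by its surroundings. FCGRT lay in a stretch of chromosome 19 where the median log2 fold change of 371 neighbours relative to RFP was 0.38 for ETS1-High and 0.39 for ETS1-Low, and 84.6% of the neighbours were higher in each. FCGRT exceeded these medians by 2.04 and 1.86. The 97 neighbours of GSTM4 had medians of 0.19 for ETS1-Low and -0.03 for ETS1-High relative to RFP and -0.21 between both, from which GSTM4 differed by 1.94, 0.91 and -1.04. VRK1 in ETS1-Low against RFP (-0.17) differed by only -0.04 from the median of its 95 neighbours (-0.14), whereas in ETS1-High it was -0.37 below it. Around the other 7 genes and VRK1 the medians lay between -0.14 and 0.05. The windows of VRK1 and BCL11B on chromosome 14 overlap, as do those of CAV1 and FEZF1 on chromosome 7, so these medians are not independent. FEZF1 was -0.69 and -0.63 below its 63 neighbours in ETS1-High and ETS1-Low, and LIPI was 1.75 and 1.64 above its 31 neighbours. NR0B1 had only 25 neighbours. Copy number was not analysed here, and its part in these medians was not tested.

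Paralogs and direct partners of the 10 genes came from a list of 42, of which 28 were tested. In ETS1-High against RFP 19 were called higher and 5 lower (median log2 fold change 0.74), and in ETS1-Low 18 and 5 (median 0.40). Between the ETS1 groups 8 were higher and 11 lower (median -0.02). Of all tested genes, 37% were higher and 37.2% lower in ETS1-High, 37.9% and 36.2% in ETS1-Low, and 29.9% and 29.3% between the ETS1 groups. Around CAV1, the partners CAVIN1, CAVIN2, EHD2 and CAV2 were higher in both ETS1 groups, and 2 other cavins were lower. CAVIN1 (PTRF in the table), which shapes caveolae, had 81.3 CPM in RFP, 197 in ETS1-Low and 249.7 in ETS1-High, and CAVIN2 (SDPR) had 9.07, 32.6 and 51.8 CPM. EHD2, an ATPase at the neck of caveolae, had 2.602, 11.6 and 9.90 CPM, and CAV2, the usual partner of CAV1 in the coat, had 357, 465 and 413 CPM. CAVIN3 (PRKCDBP), with 3.70, 0.22 and 0.093 CPM, and CAVIN4 (MURC), with 3.83, 0.57 and 1.10 CPM, were lower in both ETS1 groups. The difference of each of these 6 genes from RFP was called in both ETS1 groups (edgeR adjusted p at most 1.93e-08). CAV3 was listed at 0.

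Among protein kinase C isoforms, PRKCB was the highest per length, at 57.5, 65.3 and 72.1 FPKM beside 12.9, 14.1 and 16.7 FPKM for PRKCI, the next. PRKCA, the other isoform of calcium-dependent type, had 6.73 CPM in RFP, 6.91 in ETS1-Low and 19.6 in ETS1-High. Its log2 fold change from RFP was 1.54 for ETS1-High (edgeR adjusted p 3.03e-25) and 0.04 for ETS1-Low (edgeR adjusted p 0.678). PRKCE fell from 14.015 CPM to 5.64 and 4.80, and PRKCI rose from 50.3 CPM to 59.3 and 71.8. The PRKCI call in ETS1-Low was lost in FPKM (0.12 to 0.13, limma adjusted p 0.18 to 0.33). VRK1 differed in direction from its relatives: VRK2 had 9.40 CPM in RFP and 17.6 in both ETS1 groups, VRK3 had 19.9, 24.7 and 22.5 CPM, and its substrate gene BANF1 had 107, 145 and 141 CPM. All 3 were called higher in both ETS1 groups. The VRK3 call in ETS1-High did not hold under library totals alone (log2 fold change 0.08, edgeR adjusted p 0.187) or in FPKM (0.04, limma adjusted p 0.611 to 0.708).

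Beside GSTM4, GSTM2 followed a like order with 20.05 CPM in RFP, 44.6 in ETS1-Low and 33.8 in ETS1-High. Expected counts of GSTM2 were not whole in any library. Some of its reads were thus divided with other features, which may include GSTM4, and its level is uncertain as well. GSTM3, whose counts were whole in every library, had 5.75, 13.3 and 15.0 CPM. B2M, the light chain that FCGRT needs, had 1243 CPM in RFP, 1580 in ETS1-Low and 1249 in ETS1-High. It was higher in ETS1-Low by 0.35 (edgeR adjusted p 7.33e-15), and in ETS1-High its difference from RFP was 0.01 (edgeR adjusted p 0.852), which changed sign with the scaling. It passed as lower under library totals (-0.10, edgeR adjusted p 0.000713) and in FPKM (-0.12, limma adjusted p 0.00153 to 0.00441). NKX2-2 acts through Groucho-type corepressors, of which TLE3 was the most abundant per length (41.3, 44.8 and 41.4 FPKM). On the CPM scale TLE3 had 120, 138 and 125, and its call in ETS1-Low was lost in FPKM (limma adjusted p 0.156 to 0.304). TLE1 had 2.75, 1.24 and 5.85 CPM and TLE4 4.82, 4.45 and 19.2 CPM. TLE2 had 13.5, 27.1 and 23.95 CPM and was called higher in both ETS1 groups. So were the low-count paralogs NKX2-1 (0.85, 3.32 and 3.00 CPM) and NKX2-3 (0.076, 0.82 and 1.03 CPM). NKX2-8 (0.26, 0.44 and 0.57 CPM) was called higher only in ETS1-High, and NKX2-5 was too low to be tested. NR0B2, NR5A1, BCL11A, FEZF2, LIPH, LIPG, LIPC and PLA1A were too low to be tested.

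**Figure D5:**
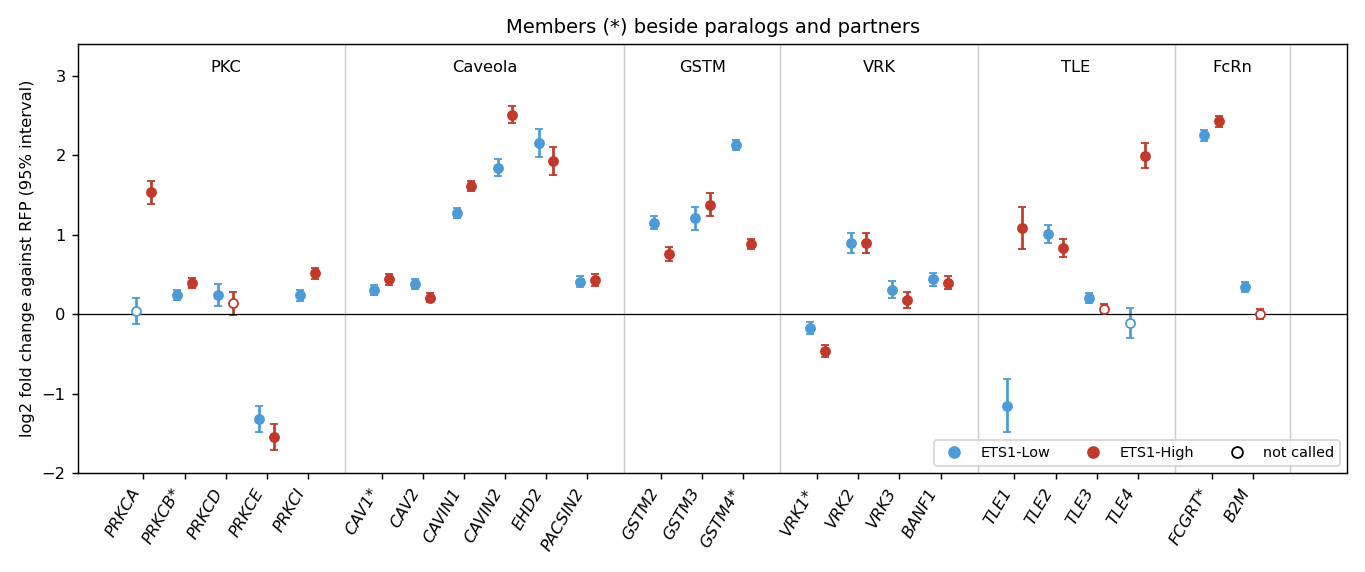
log2 fold change against RFP (vertical axis, 95% intervals) in ETS1-Low (blue) and ETS1-High (red). Shown are PRKCB, CAV1, GSTM4, VRK1 and FCGRT (asterisk), their relatives, and the TLE genes. All relatives drawn averaged 100 counts or more, and open points were not called. NKX2-1 and FEZF1-AS1 also averaged that many and are not drawn. CAVIN1, CAVIN2 and EHD2 lie above CAV1, and VRK1 lies below 0 while VRK2, VRK3 and BANF1 lie above it.

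A list of 44 other genes held to be activated by the fusion, 43 of them tested, was set beside the 10. In ETS1-High against RFP 28 were called higher and 11 lower (median 0.39), and in ETS1-Low 31 and 11 (median 0.42). Between the ETS1 groups 15 were higher and 19 lower (median -0.02). The shares of all tested genes were 37% higher and 37.2% lower in ETS1-High and 37.9% and 36.2% in ETS1-Low. Between the ETS1 groups they were 29.9% and 29.3%. PADI2, a citrullinating enzyme, had 3.24 CPM in RFP, 37.9 in ETS1-Low and 69.1 in ETS1-High. XG, a blood group antigen, had 7.99, 55.5 and 54.3 CPM, and IL1RAP, a co-receptor of interleukin-1, had 24.96, 89.5 and 141 CPM. The log2 fold changes in ETS1-High were 4.41, 2.76 and 2.499. Lowest were NPY1R, a neuropeptide Y receptor, with 16.0, 0.77 and 4.93 CPM, STYXL1, a catalytically inactive phosphatase, with 16.4, 10.7 and 9.02 CPM, and PTPN13, a tyrosine phosphatase, with 941, 832 and 556 CPM. Their log2 fold changes in ETS1-High were -1.70, -0.85 and -0.76.

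For a list of 24 genes held to be repressed by the fusion, 14 were called higher and 9 lower in ETS1-High against RFP (median 0.37). In ETS1-Low 9 were higher and 13 lower (median -0.20), and between the ETS1 groups 20 and 3 (median 0.74). The shares of all tested genes were 37% higher and 37.2% lower in ETS1-High and 37.9% and 36.2% in ETS1-Low. Between the ETS1 groups they were 29.9% and 29.3%. CAVIN1, named above as a partner of CAV1, is also on this list. IGFBP5, an insulin-like growth factor binding protein, TGFBR2, a TGF-beta receptor, and CCN1 (CYR61 in the table), a matricellular protein, stood above RFP in ETS1-High by 5.02, 3.33 and 2.92 on the log2 scale. Lowest were COL6A1, a collagen VI chain, THBS1, thrombospondin 1, and DKK1, a Wnt antagonist, at -1.98, -1.82 and -1.27.

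Tested protein-coding genes other than the 10 that have a run of at least 8 GGAA units in the 5 kb upstream numbered 109. Of these 48.6% were called higher and 32.1% lower in ETS1-High against RFP (median log2 fold change 0.12), beside 40.5% and 39.3% of all 13877 tested protein-coding genes but the 10 (median 0.01). In ETS1-Low against RFP 49.5% were higher and 33.0% lower (median 0.14), beside 41.1% and 39.1% (median 0.01). Between the ETS1 groups 28.4% were higher and 44% lower (median -0.07), beside 34.3% and 31.7% (median 0.01). These shares were not tested against each other.

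The genes whose pair of log2 fold changes against RFP lay nearest to that of NR0B1, by Euclidean distance over 2 comparisons and 12400 genes that averaged 100 counts or more, were RP11-520F9.2, MYRF and CTD-2119F7.2, at distances of 0.00101, 0.00637 and 0.0076. As many as 350 genes lay within 0.1 of NR0B1, so its pattern was common. For FCGRT the nearest were GLIPR1, CDKN2C and PARP9, at 0.0552, 0.119 and 0.129, and only 1 gene lay within 0.1.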

How the data were processed

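Expression was measured by RNA-seq (stranded mRNA libraries from total RNA, per the labels' protocols) in 9 TC-32 libraries, 3 per group as titled. The authors deposited RSEM expected counts and RSEM FPKM per gene, per the file headers; expected counts divide reads shared between genes, and 9% to 10.3% of values per library were not whole. The submitters' processing notes name cutadapt 4.4, STAR 2.7.3, featureCounts, Subread 2.0.3, limma 3.38.3 and GRCh38 without roles; the annotation release and the use of strand in counting are not given in the sources used here. Counts come from amplified libraries without molecular identifiers, so depth limits cover counting error only.

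Rounded expected counts entered edgeR's quasi-likelihood test (version 4.0.16, R 4.3.3; TMM, filterByExpr, 1 fit of all 9 libraries, 6 residual degrees of freedom, Benjamini-Hochberg over 17235 genes, adjusted p under 0.05), tested on simulated data. Log2 fold changes use edgeR's prior count of 0.125. No 2 replicates agreed within sampling noise (chi-square per gene 2.66 to 5.19), so none was treated as a repeat deposit of another. Same-numbered libraries of different groups correlated at r from -0.03 to 0.03 in their deviations, so replicate numbers did not pair samples.

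The 10 genes and the lists were chosen with earlier results of these data known. All 10 genes, the relatives, ETS1, FLI1 and EWSR1 may be named; of the activated and repressed lists, the 3 highest and 3 lowest called log2 fold changes in ETS1-High against RFP averaging 100 counts or more; and the 3 genes nearest to NR0B1 and to FCGRT. Positions and introns are from GENCODE v44 on GRCh38. GGAA blocks of at least 3 units were joined into a tract over gaps of up to 60 bases. Alternatives were DESeq2 size factors, upper-quartile factors, no filter, a minimum of 10 counts per library, the replicate block, fitting the 2 groups alone, omitting each library in turn, the DESeq2 Wald test (DESeq2 1.42.0), limma 3.58.1 on log2(FPKM + 1) or log2(FPKM + 0.1) with mean FPKM of at least 1 or without that filter, neighbours within 5 Mb, and, chosen after seeing the data, library totals alone and the canonical start.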

Additional observations from a re-analysis of the deposited data

Results flagged for a closer look

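The edgeR test of ETS1-High against ETS1-Low is the test of the difference between both ETS1 groups' changes from RFP. It passed for 8 of the 10 genes, where 59.2% of all tested genes passed. It also passed for the 29 other named genes listed below. These were counted among genes chosen for naming, so their number cannot be read against that share. Those from the activated and repressed lists were named for their highest and lowest called changes in ETS1-High against RFP. That comparison uses the same ETS1-High libraries, so passing here was in part built into the choice. Log2 differences below are ETS1-High minus ETS1-Low. Among the 10 genes they were -1.24 in GSTM4, -0.293 in VRK1, -0.178 in NR0B1, -0.106 in NKX2-2, 0.136 in CAV1, 0.148 in PRKCB, 0.179 in FCGRT and 0.248 in BCL11B. GSTM4 was thus the gene of the 10 that differed most.

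Among relatives and partners they were 2.24 in TLE1, 2.11 in TLE4, -0.181 in TLE2 and -0.138 in TLE3. Protein kinase C isoforms had 1.5 in PRKCA, 0.277 in PRKCI and -0.229 in PRKCE. Caveolar partners had 0.671 in CAVIN2, 0.344 in CAVIN1, -0.172 in CAV2 and -0.233 in EHD2. The others were -0.132 in VRK3, -0.339 in B2M, -0.397 in GSTM2, 0.173 in GSTM3 and -0.361 in FEZF1-AS1. Among other activated genes they were 2.68 in NPY1R, -0.581 in PTPN13, 0.657 in IL1RAP, 0.866 in PADI2 and -0.239 in STYXL1, and among repressed genes 0.811 in IGFBP5, 1.04 in TGFBR2, -0.98 in DKK1, 1.37 in CCN1, 1.09 in COL6A1 and 2.48 in THBS1. ETS1 and FLI1 differed by 0.853 and 0.225.

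Several of these calls did not hold under every alternative. STYXL1 lost its call without ETS1-High replicate 1 (-0.107, edgeR adjusted p 0.242), without ETS1-Low replicate 1 (-0.203, edgeR adjusted p 0.0798) and in FPKM (limma adjusted p 0.185 to 0.392). VRK3 lost it without ETS1-Low replicate 1 or 3 or ETS1-High replicate 3 (edgeR adjusted p 0.111, 0.114 and 0.133), under library totals (0.0804), by DESeq2 (0.0918) and in FPKM without a filter (0.102). PRKCE lost it in 9 of 17 alternatives, among them omission of ETS1-Low replicate 1 or 3 or ETS1-High replicate 2 or 3 (edgeR adjusted p 0.0555 to 0.152). GSTM3 lost it without ETS1-Low replicate 3 (edgeR adjusted p 0.0992) and in FPKM without a filter (limma adjusted p 0.0518). TLE2 and TLE3 lost it in FPKM (limma adjusted p 0.0835 to 0.171 and 0.191 to 0.402), EHD2 in 2 of 3 FPKM fits (0.116 and 0.0955), and PRKCI and THBS1 in FPKM without a filter (0.0802 and 0.0529).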

How the results depend on the processing

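Under 17 alternatives the counts of genes and of the 10 members called stayed within 1.5 times (102 of 102), and over single alternatives the 10 genes' values kept direction and call in 478 of 510. For NKX2-2 in ETS1-High against RFP, direction changed under library totals (-0.000758) and in FPKM (-0.00387 with a pseudocount of 1, with or without filter, and -0.00397 with 0.1). The uncalled LIPI difference between the ETS1 groups became 0.00985 under library totals, 0.00192 and 0.00193 in FPKM, 0.0023 without ETS1-Low replicate 2 and 0.00801 without ETS1-High replicate 1 (lowest -0.0391, without ETS1-High replicate 3). For NKX2-2 between the ETS1 groups the call was also lost without ETS1-Low replicate 3 (-0.0979), without ETS1-High replicate 3 (-0.0908) and by DESeq2 (-0.0943), and in ETS1-High against RFP with upper-quartile factors (0.0438) and without RFP replicate 2 (0.0872). Against RFP in ETS1-Low, library totals lowered CAV1 to 0.17 and PRKCB to 0.11 and FPKM lowered NR0B1 to 0.175, while FPKM put VRK1 as low as -0.34, all still called; the cause was not tested.

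Of the other named genes, B2M in ETS1-High against RFP became -0.00482 with DESeq2 factors, -0.0537 with upper-quartile factors, -0.0979 under library totals, -0.0128 with at least 10 counts, -0.0048 by DESeq2, -0.119 in FPKM, and -0.00854 and -0.000311 without RFP replicates 2 and 3 (highest 0.0265, without RFP replicate 1). TLE3 there became -0.0395 under library totals. PRKCA in ETS1-Low against RFP became -0.012 with upper-quartile factors, -0.0944 under library totals, and -0.0259 and -0.0504 in FPKM, and PRKCE between the ETS1 groups became 0.0688 and 0.105 in FPKM. Differences between the ETS1 groups that did not pass were recomputed only for the 10 genes and EWSR1. Library totals moved the median of all genes to -0.114 and -0.122 in ETS1-High and ETS1-Low against RFP and the share of higher calls from 49.8% to 40.6% and from 51.2% to 39.2%. FPKM without a filter gave 38.1% and 36.5%. Counts of genes changed at least 2-fold (3626, 3555 and 1679) became 1241, 1201 and 415 with FPKM + 1, 1714, 1696 and 690 with FPKM + 0.1, 1410, 1361 and 459 without its filter, and 2035, 1985 and 831 with at least 10 counts. With the replicate block 12701, 12729 and 10122 genes were called, and no call among the 10 changed. With 5 Mb in place of 10 Mb, 22 of 30 neighbour medians moved by more than the spread between libraries. Clones cannot be told from treatment, and repeat lengths in TC-32 were not analysed here.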
